A study of Mus musculus with 18 samples.

Results

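Lsm14b knockout oocytes collected at the time when wild-type oocytes are at metaphase II were compared with knockout oocytes at metaphase I, to describe which mRNAs changed between these stages when LSM14B was missing. Of 18 libraries in the series, 6 entered this comparison, and of 27874 genes in the deposited table, 8416 had at least 1 FPKM (reads per kilobase of exon, scaled to the depth of the library) in 3 or more of these 6 libraries and were tested. Oocytes of 3 libraries came from Lsm14b-/- mice 14 h after hCG, the hormone injection that triggers ovulation, a time the labels denote as MII (KO MII). They were set against 3 libraries of Lsm14b-/- oocytes at MI (KO MI), and the same change was measured for these genes in wild-type oocytes (WT MII and WT MI, 3 libraries each). Each library pooled 15 oocytes. The labels do not state whether KO oocytes had reached metaphase II, how long after hCG the MI oocytes were taken, how the allele was made or how old the mice were, so KO MII names a collection time here. They do not say that replicates came from separate animals either, and p-values measure only the spread between these libraries.

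A fully grown mouse oocyte is transcriptionally silent and lives on mRNA that it made and stored while growing. During maturation some stored mRNAs gain longer poly(A) tails and are translated, guided by cytoplasmic polyadenylation elements (CPEs) in their 3′ untranslated regions, while others lose their tails and are cleared. LSM14B belongs to a family of proteins that bind mRNA in cytoplasmic granules together with DDX6 and 4E-T, and the study is about maternal mRNA in its absence. Because cDNA was primed with oligo(dT), a lower value can be less mRNA or a shorter poly(A) tail, and these cannot be told apart. Likewise a higher value can be more mRNA or a longer tail. As FPKM are scaled to the depth of the library, a higher or unchanged value can also be a larger share of a smaller total. In pooled oocytes, fewer cells holding an mRNA and less of it per cell cannot be told apart either.

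Lsm14b itself (chromosome 2, 180024987 to 180035465, plus strand) was at 0.106, 0.0214 and 0.211 FPKM in the 3 KO MII libraries and at 0.126, 0.121 and 0.126 FPKM in the 3 KO MI libraries. Those values rest on 1 to 10 reads a library. WT oocytes held 9.34 ± 1.73 FPKM at MII and 7.08 ± 3.60 FPKM at MI (SD, n = 3 each), so every KO library lay far below the WT means. All 15 oocyte markers reached 1 FPKM. Their summed level was 14585 to 14758 FPKM in KO MII and 25748 to 29516 FPKM in KO MI. Markers of cumulus and granulosa cells summed to 6.54 to 9.50 FPKM in KO MII and 7.90 to 8.91 FPKM in KO MI, with 3 of 16 reaching 1 FPKM and Foxl2 at 0. Markers of theca, stroma and endothelium summed to 4.52 to 4.91 FPKM in KO MII and 3.21 to 4.03 FPKM in KO MI, and blood markers to 1.31 to 7.73 FPKM in KO MII and 1.61 to 2.33 FPKM in KO MI.

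The KO libraries held 16172815 to 16352235 reads at MII and 16468264 to 17183681 at MI, so that for a gene of 1 kb a single read was worth 0.0582 to 0.0703 FPKM in the series. In a principal component analysis of the 12 libraries the first component, with 52.0% of the variance, scored 5.48, 20.1 and 6.25 in KO MII and -39.8, -41.4 and -41.4 in KO MI. WT MII scored at least 58.6 and WT MI at most -26.5, so on this component KO MII lay between both WT stages. The second component, with 24.4% of the variance, scored -35.35, -43.7 and -34.9 in KO MII and -14.2, -14.7 and -12.4 in KO MI. All WT libraries scored 13.2 to 41.1 there, so KO MII lay farther from both WT stages than KO MI did. KO MI replicate 3 stood apart from its group. The SD of its deviations from the group means was 0.339 against 0.219 and 0.228 for replicates 1 and 2, and it correlated with them at 0.961 and 0.959 against 0.988 between them. KO MII replicate 2 was the library with the highest first score in its group. Results that rest on either library are given with and without it.

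The 3′ ends of some of the named genes are shown first, because the poly(A) tail attached there enters both oligo(dT) priming and clearance. Each is 30 bases of the annotated transcript, 5′ to 3′, from GENCODE vM21 on GRCm38. Capitals mark a polyadenylation signal (AATAAA, or ATTAAA, in the last 60 bases) or a CPE (TTTTAT or TTTTAAT, in the last 150 bases of the 3′ UTR), searched on the sense strand, where the letters of the signal and the CPE can overlap. Of 7108 tested genes with such a 3′ UTR, 66.5% held AATAAA, 14.6% held ATTAAA and no AATAAA, and 27.1% held a CPE. A match is a description of the letters and was not tested as a site. The stretches of Cdc42se2 and Tspan14 end 108 and 82 bases before the transcript end, and their polyadenylation signals are not shown. Only these 2 of the 8 largest rises with such a 3′ UTR held a CPE. Of the 10 largest falls 1 held a CPE (Ndufa2, not shown).
Cox4i1, fell in KO (chr8:120674174-120674203, plus strand): atggtccatgctAATAAAagaccagtttac
Rps13, fell in KO (chr7:116331512-116331541, minus strand): gtgtgcacaagcAATAAAatcactttgagt
Lamtor5, fell in KO (chr3:107284050-107284079, plus strand): ttcattatggccAATAAAcctgttctgagg
Rnf4, rose in KO (chr5:34353405-34353434, plus strand): attaaagatggaAATAAAacaatttgaact
Cdc42se2, rose in KO (chr11:54717564-54717593, minus strand): agatggacgtatTTTTATaatctaagcata
Tspan14, rose in KO (chr14:40906527-40906556, minus strand): cctgccaaactcTTTTATggaatatatctt
Zp2, fell in WT and not called in KO (chr7:120132359-120132388, minus strand): ttggacttgcaAATAAAgagactgcagtta
Ergic3, fell in WT and not called in KO (chr2:156018244-156018273, plus strand): ccagcccagggcAATAAAtatgaattgtga
Trappc6b, fell in WT and not called in KO (chr12:59043096-59043125, minus strand): ttgaaagtttaTTTTAATagacttgagtcc
Wtap, lower in KO relative to the WT change (chr17:12966799-12966828, minus strand): accaaacctaAATAAAcatTTTTATtacga

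Between MI and the MII time, more genes fell than rose in KO oocytes. By limma on log2(FPKM + 1), with a Benjamini-Hochberg adjusted p under 0.05, 1682 of 8416 genes changed (20.0%), of which 1284 fell (15.3%) and 398 rose (4.73%), and the median log2 change was -0.03. Summed FPKM per library were 339403 to 346001 in KO MII and 374476 to 382367 in KO MI. At least 2-fold, 868 fell and 116 rose. The groups did not overlap in 3102 genes, 1865 lower and 1237 higher in KO MII. The number of rises depended on the scaling and on single libraries. With median-of-ratios, quantile and TPM scaling the median moved to 0.07, 0.12 and 0.09, and rises made up 42.8%, 49.6% and 38.5% of the calls against 23.7% as deposited. Without KO MII replicate 2 there were 1041 calls, 872 falls and 169 rises. Without KO MI replicate 3, 1112 fell and 142 rose, without KO MII replicate 1, 1127 and 180, and without KO MI replicate 1, 1078 and 266. At least 2-fold rises numbered 41 without KO MI replicate 3, 63 without KO MII replicate 2 and 223 without KO MI replicate 2.

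The 10 largest falls included 4 ribosomal protein genes and 4 genes of the respiratory chain and ATP synthase. Folds compare mean FPKM, while log2 changes are on log2(FPKM + 1), which makes them smaller for low genes. Fam162a, a mitochondrial protein induced by hypoxia, was at 3.37, 1.27 and 1.93 FPKM in KO MII and 60.7, 65.2 and 77.2 FPKM in KO MI. The lowest KO MI library thus lay far above the highest KO MII library, and the mean was 30.9-fold lower in KO MII (log2 change -4.48, SE 0.34, adjusted p = 2.03e-07). Other genes cover 20% of its exon bases, and strand was not stated. Lamtor5, a subunit of the Ragulator complex that brings mTORC1 to lysosomes, held 9.62, 5.25 and 10.6 FPKM in KO MII and 121, 108 and 102 FPKM in KO MI, a 13.0-fold lower mean (log2 -3.60, SE 0.24, adjusted p = 6.85e-08). Cox4i1, a subunit of cytochrome c oxidase, held 1.54, 1.60 and 1.97 FPKM in KO MII and 21.5, 29.2 and 36.1 FPKM in KO MI. It was 17.0-fold lower (log2 -3.44, SE 0.22, adjusted p = 6.18e-08). None of these groups overlapped, which the rule for choosing the 10 largest falls required. The other genes among the 10 largest falls were Rpl7a, Rps13, Rps4x and Rps27, which encode ribosomal proteins, Ndufb11 and Ndufa2, subunits of respiratory complex I, and Atp5e, a subunit of the ATP synthase, with log2 changes of -3.26 to -3.56. Rps27 lay near the detection limit in KO MII, with 3 to 5 reads a library against 149 to 241 in KO MI. Rpl7a (4 to 32 reads), Rps4x (11 to 20), Ndufa2 (6 to 13) and Atp5e (12 to 31) also had KO MII means under 1 FPKM. The size and order of such falls depend on the 1 FPKM added before taking logs.

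**Figure D1:**
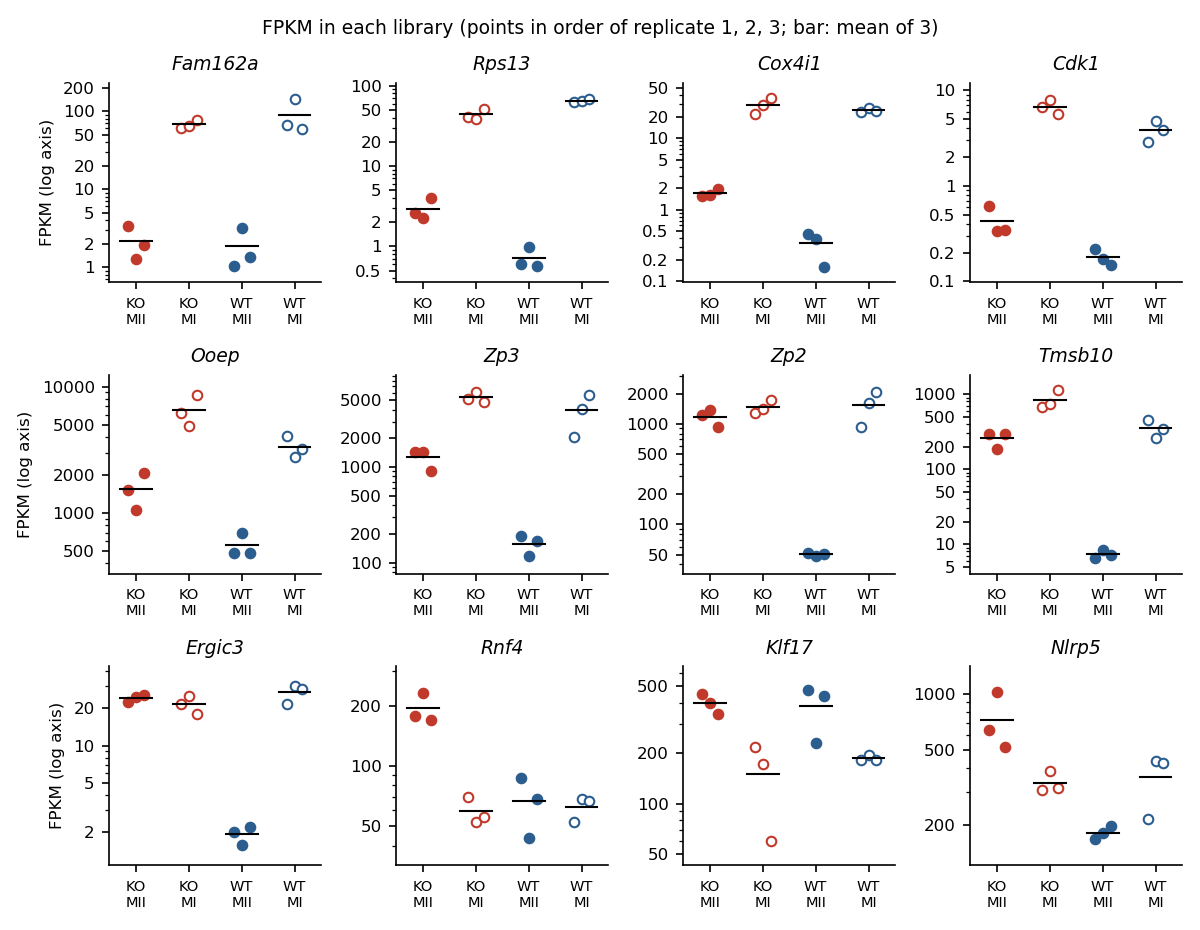
FPKM on a log axis for 12 genes, 1 point per library and a bar at the mean, in KO MII, KO MI, WT MII and WT MI from left to right. In Fam162a, Rps13 and Cox4i1 both genotypes are low at MII, while Zp2 and Ergic3 have overlapping KO groups (Zp2 939.9 to 1367 FPKM in KO MII) and a low WT MII group. Tmsb10 is lower in KO MII than in KO MI, and lower still in WT MII.

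Of the 10 largest rises, 4 kept their calls without any 1 library. Rnf4, a SUMO-targeted ubiquitin ligase, was at 178, 233 and 171 FPKM in KO MII and 70.1, 52.4 and 55.8 FPKM in KO MI. Every KO MII library lay above every KO MI library, 3.27-fold in the means (log2 1.69, SE 0.25, adjusted p = 0.000132). Pttg1ip, a protein that binds securin, was at 24.7, 31.4 and 20.9 FPKM in KO MII and 10.4, 11.4 and 6.53 FPKM in KO MI (log2 1.37, SE 0.30, adjusted p = 0.00386). Klf17, a zinc finger transcription factor stored by oocytes, was at 449.7, 397 and 342 FPKM in KO MII. Its KO MI libraries held 218, 173 and 59.97 FPKM, with replicate 3 the lowest (log2 1.58, SE 0.37, adjusted p = 0.00624). Aaas, a protein of the nuclear pore, was at 115, 134 and 110.1 FPKM in KO MII and 50.6, 61.8 and 29.7 FPKM in KO MI (log2 1.37, SE 0.33, adjusted p = 0.00671). In all 4 the groups were apart, which the rule for choosing the 10 largest rises required.

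The other 6 of the 10 largest rises were Cdc42se2, an effector of the GTPase CDC42, the ubiquitin ligase gene Rnf114, the leucine zipper gene Lzts1, the claudin gene Cldn15, the lysosomal channel gene Tmem175 and the tetraspanin gene Tspan14. Their log2 changes were 1.41 to 1.60 with adjusted p of 0.00990 to 0.0166. In each of them KO MI replicate 3 was the lowest library, and without it none passed: log2 changes were then 0.93 to 1.10 and adjusted p 0.0518 to 0.0881. Without KO MII replicate 2, Cdc42se2, Rnf114, Lzts1, Tmem175 and Tspan14 had adjusted p of 0.0934, 0.0698, 0.0607, 0.0760 and 0.0628. Tmem175, which shares 35% of its exon bases with other genes, and Tspan14 also lost the call without KO MII replicate 1, with adjusted p of 0.0591 and 0.0545.

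Set beside wild type, fewer of the same genes were called in KO in all, while the order of the rises depended on threshold and library. In WT, 3322 of the same 8416 genes changed from MI to MII (39.5%), with 2507 falls (29.8%) and 815 rises (9.68%). When WT MI replicate 3, WT MII replicate 1 or WT MII replicate 3 was left out, there were 413, 346 and 315 rises in KO. The rises in WT then numbered 340, 278 and 274. At least 2-fold, 116 genes rose in KO and 73 in WT. Of the 1284 genes that fell in KO, 1149 fell in WT as well, which was 89.5% of the KO falls and 45.8% of the WT falls. Another 1333 genes fell in WT and were not called in KO, 25 fell in WT and rose in KO, and 1 (Srp54a) fell in KO and rose in WT. Across genes the KO and WT changes correlated at Pearson r = 0.738 and Spearman rho = 0.629, as a description, since genes are not independent replicates. The comparisons share no library.

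The difference between the genotypes in the change, tested as an interaction, was called in 617 genes (7.33%). In 606 of them (7.20%) the KO change lay above the WT change, and in 11 (0.131%) below it. The split was less one-sided with other scalings, at 521 above and 58 below with median-of-ratios and 538 and 127 with quantile normalization. With the replicate number as a block within each genotype it was 769 and 59. Of the 1333 genes that fell in WT with no call in KO, 367 had a called difference, all toward a smaller fall or a rise in KO, and the 25 genes with opposite calls all had one. For the others no difference was shown. Choosing genes by these calls largely sets the direction of their differences, so that direction is a description. Count and direction followed single libraries: there were 370 calls without KO MII replicate 1, 364 without WT MII replicate 3, 383 without WT MI replicate 2 and 421 without WT MII replicate 2. Calls below the WT change numbered 103 without WT MI replicate 1 and 3 to 6 without KO MI replicate 3, any KO MII replicate but the third, WT MI replicates 2 and 3 or any WT MII replicate.

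**Figure D2:**
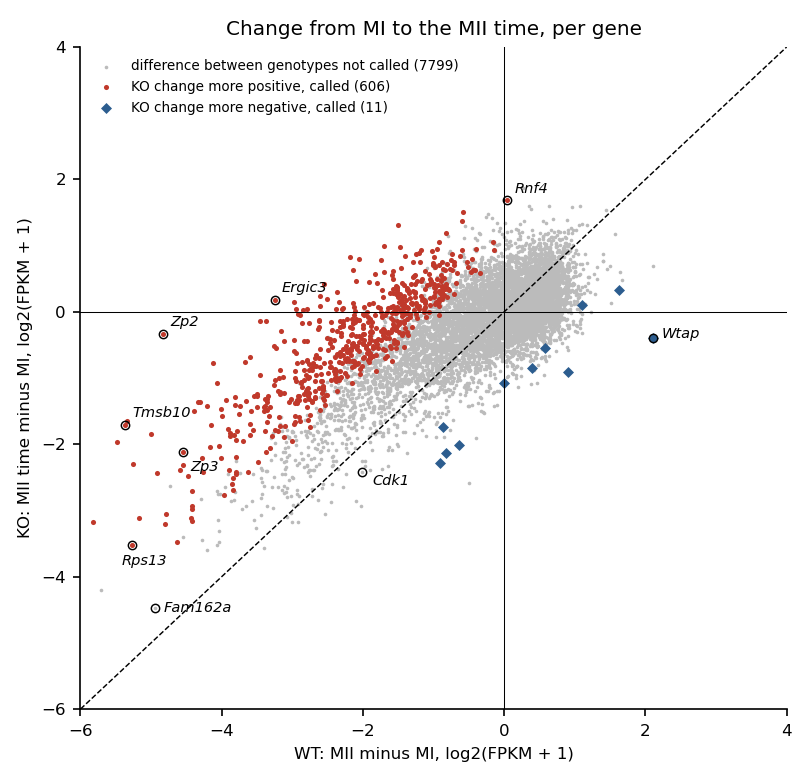
Log2 change from MI to MII in KO (y axis) against that in WT (x axis) for 8416 genes. Red points are the 606 genes whose KO change lay above the WT change, blue diamonds the 11 below it, grey points the others, and the dashed line marks equal changes.

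In classes of larger WT falls, the median fall in KO was larger as well. Genes called lower in WT were split by the size of their WT change, so that their WT values are a description. In the 723 genes with a WT log2 change of 0 to -1, the median change was -0.32 in KO and -0.80 in WT, and 21.4% fell in KO. In the 480 genes of -2 to -3, the medians were -1.24 in KO and -2.39 in WT, and 72.3% fell in KO. In the 50 genes beyond -4, the medians were -2.56 in KO and -4.42 in WT. Of these 50, 96% fell in KO and 72% had a called difference between the genotypes. Over all 2507 genes 2308 had a smaller fall in KO than in WT, where some of that follows from choosing them by their WT values.

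**Figure D3:**
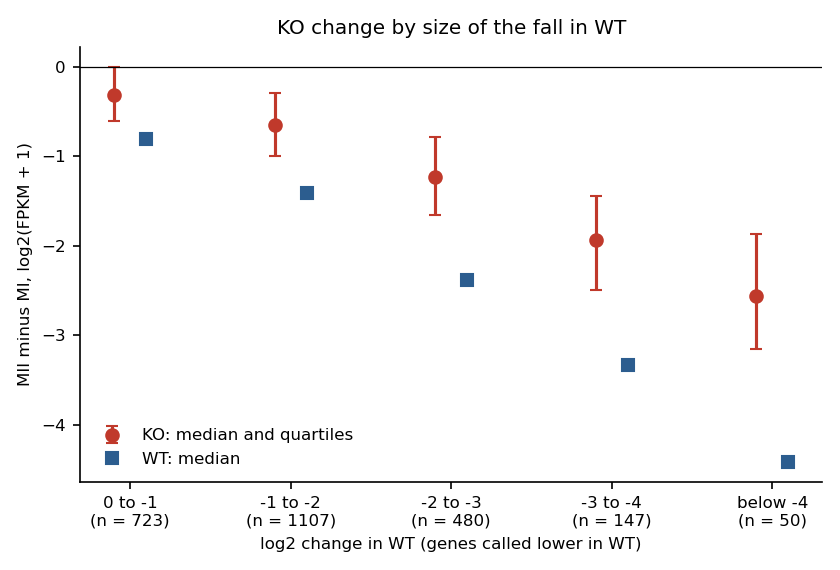
Median log2 change in KO with its quartiles, and in WT, for genes that fell in WT, by the size of the WT fall. The KO median moves from -0.32 in the class of smallest WT falls to -2.56 in the deepest, and stays above the WT median in every class.

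Zp2 had the largest difference between genotypes of the genes named by the rule. It encodes a glycoprotein of the egg coat that sperm bind. Zp2 was at 1219, 1367 and 939.9 FPKM in KO MII and 1282, 1405 and 1734 FPKM in KO MI, ranges that overlapped. In WT it was at 50.3 ± 1.43 FPKM at MII and 1538 ± 571 FPKM at MI (SD, n = 3 each). The KO change was -0.33 (95% interval -0.89 to 0.22, adjusted p = 0.415) and the WT change -4.83, a difference of 4.50 (adjusted p = 5.26e-06). Zp1, a zona protein that crosslinks its filaments, was at 267, 339.8 and 195 FPKM in KO MII and 399, 473 and 384 FPKM in KO MI. These groups did not overlap, but the change of -0.68 did not pass (SE 0.35, adjusted p = 0.187), while its difference from WT did (2.93, adjusted p = 0.00191). Zp3, a zona protein that takes part in sperm binding, did fall in KO, with 1434, 1438 and 917 FPKM in KO MII and 5132, 6127 and 4856 FPKM in KO MI. Its mean was 4.25-fold lower in KO MII (log2 -2.11, SE 0.32, adjusted p = 0.000146). The WT fall of Zp3 was larger, to 158 ± 36.9 FPKM at MII against 3969 ± 1832 FPKM at MI (SD, n = 3 each), and the difference was 2.44 (adjusted p = 0.00345). Of the 14 zona and egg surface genes tested, 4 fell in KO (28.6%, against 15.3% of all genes) and 7 in WT. None rose in KO (1 without KO MI replicate 3, WT MI replicate 2 or WT MII replicate 2). The 4 were Zp3, Oosp2 and Oosp3, secreted oocyte proteins, and Izumo1r, the egg receptor for the sperm protein IZUMO1 (log2 -1.31). The median of the list was -0.50 in KO and -1.08 in WT, against -0.03 and -0.07 for all genes. Of the 14, 5 had a called difference, all above the WT change. Over all genes tested the shares were 7.20% above and 0.131% below.

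Other large differences between genotypes were in Tmsb10, Chchd2 and Ergic3. Tmsb10, a thymosin that binds actin monomers, was at 292, 184 and 296 FPKM in KO MII and 673, 727 and 1129 FPKM in KO MI. It fell without overlap in KO (log2 -1.70, SE 0.26, adjusted p = 0.000205) and further in WT, to 7.29 ± 0.863 FPKM at MII against 349.8 ± 94.97 FPKM at MI (SD, n = 3 each; difference 3.67, adjusted p = 4.65e-05). Chchd2, a mitochondrial regulator of respiration, was at 97.8, 49.6 and 93.3 FPKM in KO MII and 289, 280.2 and 346 FPKM in KO MI (log2 -1.97, adjusted p = 2.90e-05). Its WT level was 2.31 ± 0.471 FPKM at MII and 147 ± 18.1 FPKM at MI, for a difference of 3.51. Ergic3, a cargo receptor between the endoplasmic reticulum and the Golgi, was at 22.5, 24.9 and 25.6 FPKM in KO MII and 21.8, 24.97 and 17.96 FPKM in KO MI. The KO groups overlapped (log2 0.18, 95% interval -0.27 to 0.62). In WT it was at 1.93 ± 0.322 FPKM at MII and 27.0 ± 4.52 FPKM at MI, and the difference was 3.43 (adjusted p = 7.13e-06).

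The rule for transcripts kept in KO while they fell in WT was met by 3 genes. It required the whole 95% interval of the KO change to lie in a narrow band around no change. Genes with a wider interval could not meet it, so 3 is no count of all kept transcripts. Among genes that fell in WT with no call in KO, 367 had a called difference. Trappc6b, a subunit of a vesicle tethering complex, was at 21.7, 23.0 and 32.3 FPKM in KO MII and 22.9, 26.9 and 25.1 FPKM in KO MI (log2 0.02, 95% interval -0.41 to 0.45). In WT it was at 5.26 ± 0.498 FPKM at MII and 26.0 ± 2.05 FPKM at MI (SD, n = 3 each). Polr3k, a subunit of RNA polymerase III, had a KO change of -0.01 (95% interval -0.46 to 0.43) and 16.4 ± 1.57 FPKM in WT MII against 45.6 ± 10.9 FPKM in WT MI. Dnaja1, a co-chaperone of HSP70, had a KO change of 0.05 (-0.37 to 0.47) and 52.9 ± 6.41 FPKM in WT MII against 137 ± 17.1 FPKM in WT MI. The rule used the KO interval and the difference from WT, so these values are a description. The differences of Polr3k and Dnaja1 were lost with median-of-ratios scaling.

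Below the WT change stood 11 transcripts, or 59 with the block within each genotype and 58 and 127 with median-of-ratios and quantile scaling. Srp54a, the signal sequence binding subunit of the signal recognition particle, held 3.997, 2.83 and 2.19 FPKM in KO MII and 6.17, 8.17 and 5.23 FPKM in KO MI, with no overlap. It fell in KO (log2 -0.91, adjusted p = 0.0235) and rose in WT, to 11.1 ± 3.64 FPKM at MII against 5.36 ± 1.47 FPKM at MI, a difference of -1.82 (adjusted p = 0.00794) that held without any 1 library. Its KO call was lost without KO MI replicate 1 or 2 or KO MII replicate 2 or 3, with adjusted p of 0.0532, 0.0962, 0.0698 and 0.0816. Wtap, a subunit of the m6A methyltransferase complex, had overlapping KO groups of 19.9, 12.8 and 22.8 FPKM at MII and 16.5, 26.9 and 30.7 FPKM at MI, and a difference of -2.49 (adjusted p = 0.0312). Sall4, a zinc finger transcription factor (-1.30), Erich5 (-1.12) and the ribosomal protein gene Rpl17 (-1.37) made up the 5 largest. These calls rested on single libraries. That of Sall4 was kept only without WT MI replicate 1, and that of Erich5 without this library, KO MI replicate 2 or KO MII replicate 3. Wtap kept the call without KO MI replicate 1, KO MII replicate 3, WT MI replicate 1 or WT MII replicate 3. Rpl17 lost it without KO MI replicate 3, KO MII replicate 2 or 3, WT MI replicate 2 or WT MII replicate 2 or 3. The highest adjusted p of these 4 genes with 1 library left out were 0.138 (Sall4), 0.110 (Erich5), 0.103 (Wtap) and 0.0850 (Rpl17).

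By function, the lists with the most falls in KO were those of ribosomal proteins and oxidative phosphorylation. Of 66 cytosolic ribosomal protein genes tested, 55 fell in KO (83.3%, against 15.3% of all genes) and 0 rose, and 61 fell in WT. Their median log2 change was -1.38 in KO and -2.36 in WT, and the KO median was -1.29, -1.24 and -1.69 with median-of-ratios, quantile and TPM scaling. KO changes ran from -3.56 in Rpl7a to 0.09 in Rps2. Rps13 held 2.57, 2.27 and 3.95 FPKM in KO MII and 41.1, 38.8 and 51.5 FPKM in KO MI, with no overlap (log2 -3.52, SE 0.22, adjusted p = 6.18e-08). It fell further in WT, to 0.720 ± 0.237 FPKM at MII against 65.2 ± 2.75 FPKM at MI (difference 1.75, adjusted p = 0.00254). In all, 14 ribosomal protein genes had a smaller fall in KO than in WT by the test and 1 a larger one (Rpl17). Over all genes tested, 7.20% had a called difference above the WT change and 0.131% below it. The 14 were 9 without KO MII replicate 3 or WT MII replicate 3. Many of these genes have near-identical processed pseudogenes, so their reads could be split and single values are uncertain.

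Of 72 nuclear genes of oxidative phosphorylation, 49 fell in KO (68.1%) and 2 rose (2.78%), against 15.3% and 4.73% of all genes. In WT 64 of the 72 fell. The median was -1.35 in KO and -2.28 in WT. Of all genes tested, 7.20% had a called difference above the WT change and 0.131% below it. In this list 13 of 72 had one, all above. These were 8 without KO MII replicate 1 or WT MII replicate 3, 20 without KO MII replicate 2, and 23 with the replicate number as a block within each genotype. Ndufb11 was at 11.3, 8.51 and 13.5 FPKM in KO MII and 141, 152 and 108 FPKM in KO MI (log2 -3.48, adjusted p = 6.18e-08). Its difference from WT of 1.15 (adjusted p = 0.0350) was kept only without KO MI replicate 2, KO MII replicate 2 or WT MI replicate 1, and its adjusted p reached 0.101 with another library left out. The 2 that rose were Atp5b, the catalytic subunit of the ATP synthase (log2 1.03), and Sdha, the flavoprotein of complex II (log2 1.01). Both were chosen after their values were seen. Atp5b held 139, 196 and 158 FPKM in KO MII and 94.1, 101.1 and 52.7 FPKM in KO MI. Without KO MI replicate 3 both lost the call, with adjusted p of 0.0534 for Atp5b and 0.104 for Sdha, and likewise without KO MII replicate 2, with 0.0582 and 0.0997. The 57 mitochondrial ribosomal protein genes had 33 falls in KO (57.9%) and 43 in WT, with medians of -0.84 and -1.46. The KO falls were led by Mrpl55 (log2 -2.76) and Mrpl34 (log2 -2.23).

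Of 13 mRNAs encoded by the mitochondrial genome 12 were tested, and none was called, unlike most nuclear genes of oxidative phosphorylation. Their median log2 change was 0.39 in KO and 0.59 in WT, where none passed either. With median-of-ratios, quantile and TPM scaling 1, 3 and 3 of them rose in KO, and 1 fell with the first. mt-Cytb was at 5046, 6469 and 5530 FPKM in KO MII and 2480, 3016 and 4531 FPKM in KO MI, without overlap (log2 0.80, adjusted p = 0.0600). It passed without KO MI replicate 3 (0.0239), WT MI replicate 2 (0.0485) or WT MII replicate 1 (0.0445). mt-Nd4 passed without KO MI replicate 3 (log2 1.30, adjusted p = 0.0183) or WT MI replicate 3 (0.0394). mt-Co3, at 2.44 to 6.01 FPKM in KO MII and 7.57 to 9.81 FPKM in KO MI, passed as lower without KO MII replicate 3 (0.0386) or WT MI replicate 3 (0.0332). With the replicate number as a block within each genotype, all 3 passed, at 0.0237, 0.0380 and 0.0259.

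Protein synthesis and turnover genes fell in smaller shares than cytosolic ribosomal protein and nuclear oxidative phosphorylation genes. Of all genes tested, 15.3% fell and 4.73% rose. Of 41 translation factor genes 14 fell (34.1%) and 2 rose (4.88%) in KO, with 9 falls left without KO MII replicate 2. There was 1 rise without any 1 of the KO libraries but KO MI replicate 1, and likewise without WT MI replicate 1 or 2 or WT MII replicate 1 or 3. Eif1ax, a factor of start codon scanning, was at 7.48, 4.72 and 5.16 FPKM in KO MII and 47.5, 43.2 and 51.8 FPKM in KO MI (log2 -2.86, SE 0.25, adjusted p = 7.08e-07). Eef1a1, the elongation factor that delivers tRNA, was at 66.3, 39.2 and 47.3 FPKM in KO MII and 315, 297 and 331 FPKM in KO MI (log2 -2.64, SE 0.31, adjusted p = 1.41e-05). Neither pair of groups overlapped. Of 37 proteasome genes 17 fell (45.9%) and 2 rose (5.41%), and neither rise held without KO MI replicate 3 or KO MII replicate 2. The falls were led by Psmg4, an assembly chaperone (log2 -2.39), and the subunit genes Psmc4 (-2.01) and Psmb1 (-1.72). Of 33 actin and tubulin genes 11 fell (33.3%) and 3 rose (9.09%), among the falls Tubb4b (log2 -2.43). Its KO MI replicate 3, at 28.9 FPKM, lay below 64.8 and 58.9 FPKM in the others. There was 1 rise without KO MI replicate 1, 2 or 3 or KO MII replicate 1 or 2. Of 22 kinesin and dynein genes 4 fell (18.2%), among them the dynein light chains Dynll1 (log2 -2.31) and Dynlrb1 (log2 -2.04). Dynlrb1 was at 76.4, 48.9 and 65.5 FPKM in KO MII and 252, 196 and 357 FPKM in KO MI, and its fall was smaller than in WT by 2.13 (adjusted p = 0.00162). The number of falls was 2 without KO MI replicate 3 or KO MII replicate 2. Of 41 splicing genes 7 fell (17.1%) and 2 rose (4.88%), shares near the 15.3% and 4.73% of all genes, and the falls were led by Snrpd2 (log2 -2.63). Without KO MII replicate 2 there were 4 falls and 0 rises, and without KO MI replicate 3 there were 0 rises.

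**Figure D4:**
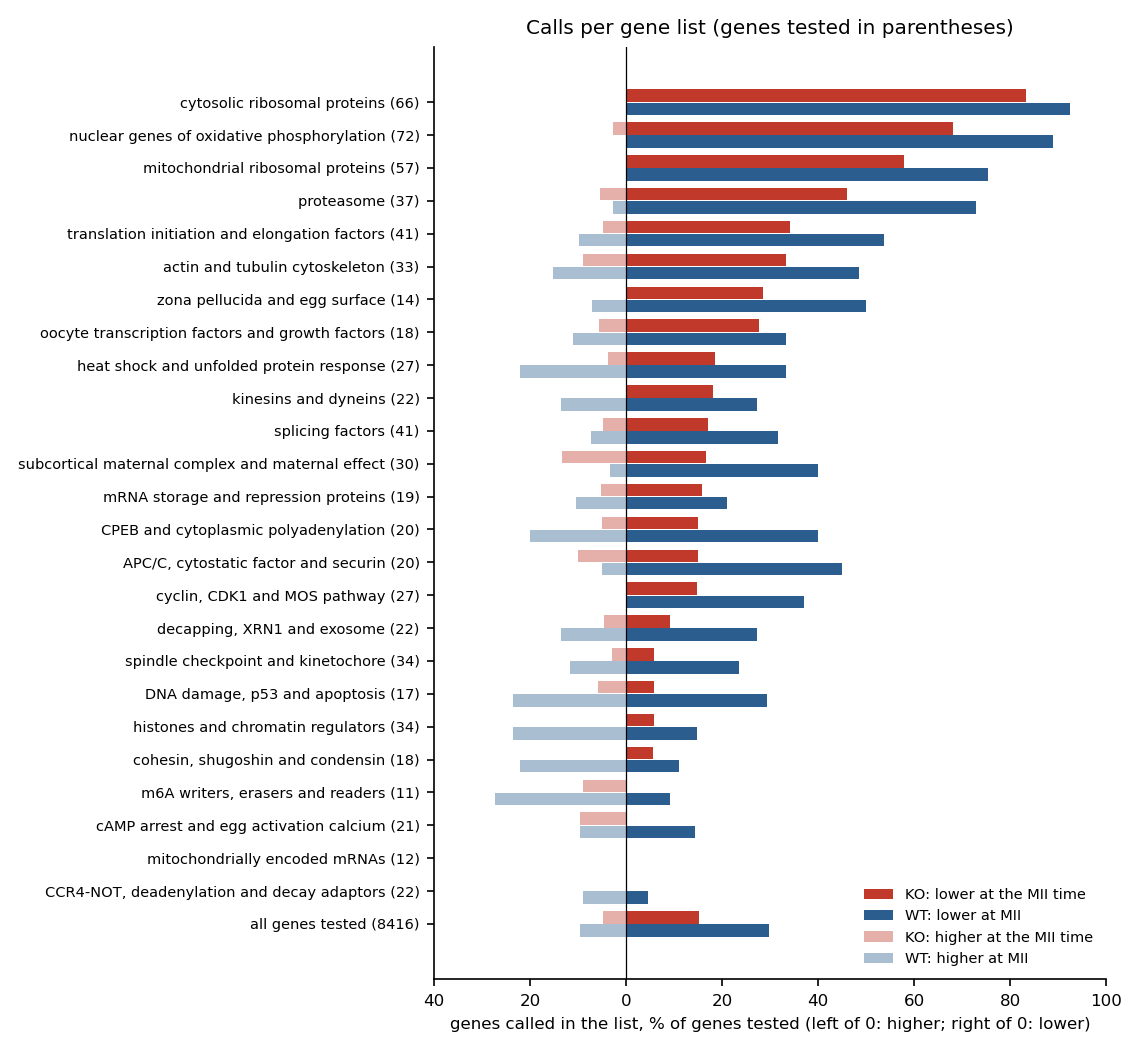
Share of the tested members of each gene list called lower (bars to the right) and higher (bars to the left) from MI to MII, KO above WT, for lists with at least 10 tested members. The ribosomal protein and oxidative phosphorylation lists have the longest bars, with 55 of 66 and 49 of 72 members lower in KO, and more of the members are lower in WT.

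Maternal effect genes are genes whose products the early embryo needs. Of 30 tested, 5 fell (16.7%) and 4 rose (13.3%) in KO, against 15.3% and 4.73% of all genes, with a median of -0.01. Ooep, a subunit of the subcortical maternal complex, was at 1520.1, 1060.0 and 2059 FPKM in KO MII and 6189.7, 4880.4 and 8631 FPKM in KO MI. The groups were apart and the mean was 4.25-fold lower in KO MII (log2 -2.10, SE 0.28, adjusted p = 4.27e-05). Npm2, a histone chaperone of the egg, was at 1506, 1475 and 1595 FPKM in KO MII and 3469.5, 3942 and 4053 FPKM in KO MI (log2 -1.32, SE 0.22, adjusted p = 0.000398). Dnmt1, the maintenance DNA methyltransferase (log2 -1.40), and Uchl1, a deubiquitinating enzyme (log2 -1.50), also fell. Uchl1 fell less than in WT, by 2.09 (adjusted p = 0.00382), and shares 18% of its exon bases with other genes. Nlrp5, a member of the same complex as Ooep that was chosen after its values were seen, had 636, 1024 and 520.0 FPKM in KO MII and 307, 387 and 312 FPKM in KO MI. It rose in KO (log2 1.06, SE 0.29, adjusted p = 0.0142) and fell in WT (-0.92, adjusted p = 0.0179), a difference of 1.98 (adjusted p = 0.00664). Its highest library was KO MII replicate 2, without which the KO change was 0.79 (adjusted p = 0.0912) and none of the list rose. Without KO MI replicate 3 or KO MII replicate 1 there was 1 rise, and without KO MI replicate 2 there were 2.

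Among 18 oocyte transcription and growth factors, 5 fell (27.8%) and 1 rose (5.56%) in KO, against 15.3% and 4.73% of all genes. The falls numbered 3 with median-of-ratios scaling and 1 to 6 with 1 library left out. Figla, a transcription factor that drives zona genes in growing oocytes, was at 11.6, 7.396 and 9.07 FPKM in KO MII and 41.9, 39.3 and 65.3 FPKM in KO MI (log2 -2.25, SE 0.33, adjusted p = 0.000111). Without KO MII replicate 2 there was 1 fall. Kit, the receptor for stem cell factor, rose (log2 0.72, adjusted p = 0.0106). The oocyte growth factors Gdf9 (log2 0.44, adjusted p = 0.296) and Bmp15 (log2 0.46, adjusted p = 0.139) did not pass. Bmp15 held 1549, 1710.3 and 1133 FPKM in KO MII and 958, 1222 and 985 FPKM in KO MI, which overlapped.

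Among the genes that run the meiotic divisions, the share that fell was near or below that of all genes tested (15.3%) in all 4 lists. Of 27 genes of the cyclin, CDK1 and MOS pathway, 4 fell (14.8%) and 0 rose. Rises numbered up to 2 without single libraries (2 without KO MI replicate 2). With median-of-ratios, quantile and TPM scaling 5, 4 and 4 of the 27 rose. Of all 8416 genes, 949, 1186 and 683 rose with these scalings. Cdk1, the kinase that drives entry into M phase, was at 0.607, 0.338 and 0.347 FPKM in KO MII and 6.62, 7.83 and 5.61 FPKM in KO MI. Its mean FPKM was 15.5-fold lower, and its change on log2(FPKM + 1) was -2.42 (SE 0.20, adjusted p = 4.49e-07). It fell in WT too (-2.02), with means of 0.179 FPKM at MII and 3.84 FPKM at MI. At such low values the log2 changes understate the falls and do not rank the genotypes. The difference did not pass (-0.40, adjusted p = 0.423). Wee1, a kinase that inhibits CDK1, fell as well (log2 -1.45, SE 0.29, adjusted p = 0.00175). Ccnb1, the cyclin partner of CDK1, held 389, 394 and 258 FPKM in KO MII and 311, 308 and 229.7 FPKM in KO MI, which overlapped (log2 0.28, 95% interval -0.19 to 0.75). Mos, the kinase upstream of MAPK, had a change of -0.20 (adjusted p = 0.633). Mapk3 and Ccno were chosen after their values were seen. Mapk3, or ERK1, was at 249.9, 215 and 283 FPKM in KO MII and 157, 252 and 158 FPKM in KO MI, which overlapped. In WT it fell to 24.5 ± 6.97 FPKM at MII, against 145 ± 21.1 FPKM at MI, and the difference was 2.98 (adjusted p = 0.000152). Ccno, an atypical cyclin, differed by 2.68 (adjusted p = 0.00293), with 56.8 to 64.4 FPKM in KO MII and 60.03 to 82.1 FPKM in KO MI.

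Of 20 genes of the anaphase-promoting complex and its regulators, 3 fell (15%) and 2 rose (10%) in KO, against 15.3% and 4.73% of all genes. With median-of-ratios scaling 4 fell, and 2 to 4 fell with 1 library left out. Fzr1, the CDH1 coactivator, was at 5.83, 6.23 and 8.82 FPKM in KO MII and 15.6, 19.9 and 13.1 FPKM in KO MI (log2 -1.11, SE 0.23, adjusted p = 0.00247). Anapc4, a platform subunit, was at 63.0, 56.6 and 66.3 FPKM in KO MII and 37.8, 39.2 and 34.9 FPKM in KO MI. It rose in KO (log2 0.72, SE 0.19, adjusted p = 0.0132) and fell in WT (-0.82, adjusted p = 0.00255), with a difference of 1.53 (adjusted p = 0.00252). Rises numbered 1 without KO MI replicate 3, KO MII replicate 1 or 2, WT MI replicate 3 or any WT MII replicate. Of 34 spindle checkpoint and kinetochore genes 2 fell and 1 rose. Birc5, or survivin of the chromosomal passenger complex, was at 672, 427 and 710.3 FPKM in KO MII and 1071, 1004 and 1125 FPKM in KO MI. It fell (log2 -0.86, SE 0.22, adjusted p = 0.00942), less than in WT (difference 1.88, adjusted p = 0.00150). The KO call was lost without KO MII replicate 2 (-0.62, adjusted p = 0.0613) and with median-of-ratios scaling. Dsn1, a kinetochore subunit of the MIS12 complex, rose, with 169, 171 and 166 FPKM in KO MII and 91.6, 95.5 and 104 FPKM in KO MI (log2 0.79, SE 0.19, adjusted p = 0.00585). Of 18 cohesin, shugoshin and condensin genes 1 fell, Meikin, a meiotic kinetochore regulator (log2 -1.44, adjusted p = 0.00114), and 2 fell without KO MI replicate 3.

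The lists of mRNA storage and decay genes fell in shares near or below that of all genes tested, of which 15.3% fell and 4.73% rose. Of 19 storage and repression genes 3 fell (15.8%) and 1 rose (5.26%) in KO, and 3 to 4 fell with 1 library left out. Ybx2, or MSY2, a Y-box protein that packages maternal mRNA, was at 7.46, 3.61 and 12.1 FPKM in KO MII and 19.9, 31.5 and 76.8 FPKM in KO MI, with KO MI replicate 3 the highest (log2 -2.23, SE 0.40, adjusted p = 0.000714). Ybx3, a related Y-box protein, was at 49.4, 17.4 and 44.0 FPKM in KO MII and 112, 154 and 511 FPKM in KO MI (log2 -2.58, SE 0.45, adjusted p = 0.000550). In WT its change was -0.49 and the difference of -2.09 did not pass (adjusted p = 0.0562), but passed with a block within each genotype (0.00839) and without KO MI replicate 1 (0.0242), KO MI replicate 2 (0.0483) or WT MI replicate 1 (0.03996). Zar1l, a relative of the storage protein ZAR1, fell (log2 -2.41) and Igf2bp3, an mRNA-binding protein, rose (log2 0.87). Lsm14a, the paralog of the deleted gene (log2 0.29, adjusted p = 0.385), and its partners Ddx6 (-0.25, adjusted p = 0.564) and Eif4enif1 (0.42, adjusted p = 0.166) did not pass.

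Of 20 genes of cytoplasmic polyadenylation 3 fell (15%) and 1 rose in KO, and 5 fell without KO MII replicate 3. Cpeb1, the protein that binds the CPE, was at 53.8, 52.0 and 64.1 FPKM in KO MII and 111, 122 and 168 FPKM in KO MI (log2 -1.20, SE 0.23, adjusted p = 0.00128). Cpsf4l, related to a subunit of the cleavage and polyadenylation factor, fell to 2.72, 2.28 and 1.72 FPKM in KO MII, against 20.5, 18.2 and 11.9 FPKM in KO MI (log2 -2.44, SE 0.34, adjusted p = 6.79e-05). Its fall was smaller than in WT, by 2.47 (adjusted p = 0.00469). Papolg, a poly(A) polymerase, fell as well (log2 -1.78, adjusted p = 0.000268). None of 22 genes of CCR4-NOT, the main deadenylase, and decay adaptors passed, and the smallest p belonged to Cnot10 (log2 -0.56, adjusted p = 0.0936), Tob1 (-0.57, adjusted p = 0.126), Btg2 (0.64, adjusted p = 0.136) and Cnot8 (0.55, adjusted p = 0.153). Cnot10 and Tob1 passed without WT MI replicate 2, with adjusted p of 0.0372 and 0.0262. With median-of-ratios and quantile scaling 2 and 3 genes of this list rose in KO and 0 fell. Of 22 decapping and exosome genes 2 fell, Lsm3 (log2 -1.12) and Lsm6 (-0.94), both of the LSM ring that promotes decapping, and 1 rose. That was the decapping cofactor gene Dcp1a (log2 0.90, adjusted p = 0.0163), which lost the call without KO MI replicate 3 (0.0764) or KO MII replicate 1 (0.0752). With KO MII replicate 3 left out, 4 of the 22 fell.

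Of 27 heat shock and unfolded protein response genes 5 fell (18.5%) and 1 rose in KO, near the 15.3% and 4.73% of all genes. Ddit3, or CHOP, a stress transcription factor, was at 3.53, 1.91 and 3.82 FPKM in KO MII and 23.1, 14.98 and 22.8 FPKM in KO MI (log2 -2.39, adjusted p = 5.14e-05). The falls numbered 3 without KO MI replicate 3 and 2 without KO MII replicate 1 or 2, and the rise was lost without KO MI replicate 1 or 3, KO MII replicate 2 or 3 or WT MII replicate 1 or 3. Of 17 genes of DNA damage, p53 and apoptosis 1 fell, Bax, the effector of mitochondrial apoptosis (log2 -1.59), and 1 rose, Mdm2, the ligase that degrades p53 (log2 0.64, adjusted p = 0.0384). The call of Mdm2 was lost without any 1 of the 3 KO MI libraries, KO MII replicates 1 and 2 and WT MII replicates 1 and 3. Of 34 histone and chromatin genes 2 fell (5.88%), and 0 without KO MI replicate 1 or 2 or KO MII replicate 2. Of 11 m6A genes 1 rose, the methyltransferase gene Mettl3 (log2 1.34, adjusted p = 0.0107), which did not pass without KO MI replicate 3 (0.92, adjusted p = 0.0584). Of 21 genes of cAMP arrest and egg activation 2 rose (9.52%, against 4.73% of all genes), and 0 without KO MII replicate 1 or 2. None of the 3 genes of the 2-cell embryo list tested passed, and 1 rose without KO MII replicate 2 or 3.

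The share of genes that fell in KO was higher in classes of shorter transcripts. Of the 7258 with an annotated transcript in the table, 14.2% fell in KO. Among 172 genes with transcripts of at most 700 bases 58.1% fell in KO, with a median log2 change of -1.04 in KO and -1.76 in WT. Among 2177 genes of over 4000 bases 4.64% fell in KO, with medians of 0.06 in KO and 0.30 in WT. Spearman's rho across genes between length and change was 0.273 in KO and 0.472 in WT, as a description. Genes that fell in KO had a median transcript of 1576 bases and a median 3′ UTR of 354.5 bases, against 2901.5 and 937.5 bases for all. The ribosomal and respiratory lists above and these length classes hold many of the same genes, and the part of length in the results was not tested.

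**Figure D5:**
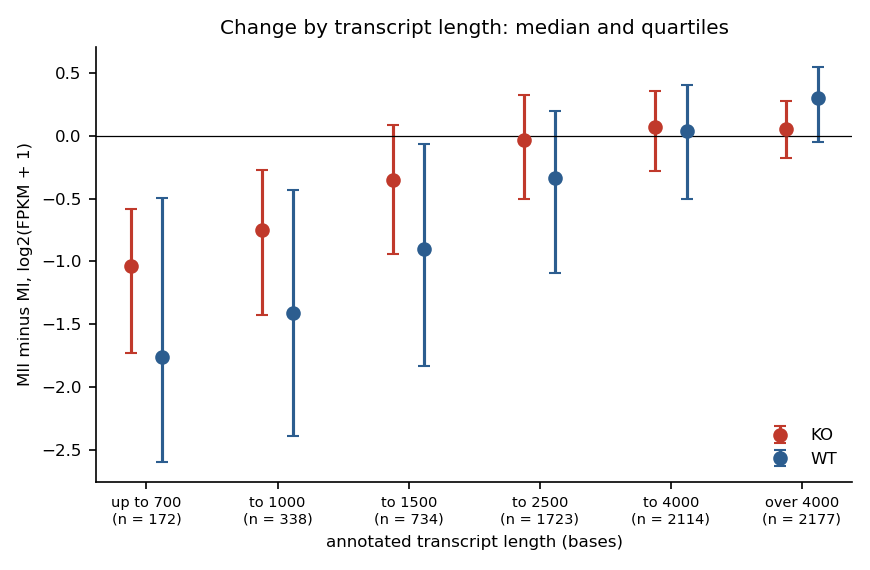
Median log2 change from MI to MII with quartiles by transcript length, KO left of WT, for 7258 protein-coding genes. The KO median moves from -1.04 in the shortest class to 0.06 in the longest, and the WT medians span more, from -1.76 to 0.30.

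The share that fell was lower among genes with a CPE in the last 150 bases. Of 5185 genes with none 17.1% fell in KO, of 1511 with 1 6.68% fell, and of 412 with 2 or more 4.61% fell. The median changes in these 3 classes were -0.07, 0.08 and 0.11 in KO and -0.16, 0.23 and 0.32 in WT. Length and CPEs moved together, and the gap between genes with and without a CPE varied with the length class. In the class of at most 700 bases 60% of 20 genes with a CPE and 63.3% of 128 without one fell in KO, with medians of -0.99 and -1.10. In the class from over 700 to 1000 bases 20.4% of 49 genes with a CPE and 58.1% of 260 without one fell in KO, with medians of -0.34 and -0.90. Over 4000 bases the medians were 0.09 and 0.04. Among the genes named for the size of their change, a CPE stood in this window in 2 of the 8 largest rises with such a 3′ UTR (Cdc42se2 and Tspan14) and in 1 of the 10 largest falls (Ndufa2). Those few genes show no clear contrast.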

How the data were processed

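Per the labels' protocols, RNA of 15 pooled oocytes per library was primed with oligo(dT) and amplified by Smart-seq2. The authors deposited FPKM per gene for 18 libraries. DESeq2 1.38.3 and mm10 appear in the submitters' processing notes with no role given. The aligner, counter, annotation and strand were not given in the sources used here. FPKM times exon length came out as whole reads (within 0.1 read, in all 18 libraries) for 94.1% of genes, which gave the depths.

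Genes with at least 1 FPKM in 3 of the 6 KO libraries were tested on log2(FPKM + 1), which understates the change of low genes. A single limma 3.58.1 model (R 4.3.3) of the 12 MI and MII libraries, with a variance trend and 8 residual degrees of freedom, gave two-sided p-values, Benjamini-Hochberg adjusted over 8416 genes with a threshold of 0.05. It was tested on simulated data. Same-numbered KO libraries deviated together (r = 0.274, 0.309 and 0.467, all over 0.1), as did KO MII replicate 2 and KO MI replicate 1 (r = 0.197). In WT the values for the same numbers were -0.048, -0.099 and 0.240. Deviations from a mean of 3 libraries are not independent, and the labels give only replicate numbers, so a pairing is not established. The model had no block.

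Of 27874 identifiers, 27829 matched GENCODE vM21, from which 1 transcript per gene was taken. The members and the 26 gene lists (909 symbols) were chosen with earlier results of these data known. The genes named were Lsm14b, the 10 largest rises and falls (called, mean of at least 5 FPKM, no overlap, no predicted gene or pseudogene), the 5 largest genotype differences each way, genes kept in KO, at most 4 per list by smallest p, and members that did not pass. Of 985 genes meeting the first criteria, 170 were left out by name or type, and 1 gene that meets the rule for differences is not reported here. Zp1, Nlrp5, Mapk3, Ccno, Atp5b and Sdha were added after their values were seen. Alternatives were pseudocounts of 0.1 and 5, other filters, scalings and sets of libraries, a replicate block, a 2-fold minimum, voom on the recovered reads and leaving out each library. Python 3.11.15 with numpy 2.4.6, pandas 2.3.3 and matplotlib 3.10.9 made tables and figures.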

Additional observations from a re-analysis of the deposited data

Results flagged for a closer look

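The change from MI to the MII time differed between KO and WT, by the interaction test, in 617 genes. It is given here as the KO change minus the WT change in log2, for the genes named above, with no explanation.

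Among egg coat, actin, secretory and mitochondrial transcripts the difference was 4.50 in Zp2, 2.93 in Zp1, 2.44 in Zp3, 3.67 in Tmsb10, 3.51 in Chchd2, 3.43 in Ergic3 and 1.15 in Ndufb11. For cell cycle and spindle genes it was 2.98 in Mapk3, 2.68 in Ccno, 1.88 in Birc5, 1.53 in Anapc4 and 2.13 in Dynlrb1. Maternal and RNA genes had differences of 2.47 in Cpsf4l, 2.09 in Uchl1, 1.98 in Nlrp5 and 1.75 in Rps13. The rises Rnf4 and Aaas differed from WT by 1.65 and 1.98, and the transcripts kept in KO by 2.13 (Trappc6b), 1.39 (Polr3k) and 1.41 (Dnaja1).

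Below the WT change lay Wtap at -2.49, Srp54a at -1.82, Rpl17 at -1.37, Sall4 at -1.30 and Erich5 at -1.12. Wtap was at 24.5 ± 6.76 FPKM in WT MII and 6.94 ± 7.91 FPKM in WT MI (SD, n = 3 each), where the SD at MI exceeded the mean.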

How the results depend on the processing

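Of 99 calls in KO among genes chosen by the rule or named, 66 held in every fit and 71 without any 1 library; of 33 such differences between genotypes, 16 and 24 did. None reversed. The cause of each shift below was not tested. The KO calls, 1682 as reported, were 1103 with no filter and 984 with a 2-fold minimum, and 1041 to 1787 without 1 library. The 398 rises were 683 with TPM scaling, 229 with all 18 libraries, 949 with median-of-ratios scaling, 147 with no filter, 1186 with quantile normalization and 116 with a 2-fold minimum (142 to 439 without 1 library). The 1284 falls were 780 at a minimum of 5 FPKM (872 to 1376). In WT the 3322 calls were 2115 at 5 FPKM, 5149 with quantile normalization and 1857 with a 2-fold minimum (2394 to 3485). The 815 WT rises were 1651 with TPM, 480 with all 18 libraries, 2439 with median-of-ratios, 3100 with quantile normalization and 73 with a 2-fold minimum (274 to 919). The 2507 WT falls were 1436 at 5 FPKM (2111 to 2581). The 617 differences were 251 with no filter (364 to 883), and the 606 above the WT change 241 (360 to 780). The 11 below it were 4 with all 18 libraries, 20 at 5 FPKM, 58 with median-of-ratios, 127 with quantile normalization and 17 with voom (3 to 103). Voom on 7610 genes called 1517 in KO, 402 higher and 1115 lower. A fit of only the groups compared was not possible for the difference.

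With the replicate number as a block, KO calls were 1558, WT calls 3195 and differences 543. With a block within each genotype, chosen after seeing the data, they were 1911, 3466 and 828, of which 59 lay below the WT change. Depth limits transcripts near 1 FPKM: Rps27 in KO MII rests on 3 to 5 reads a library. Rpl7a, Rps4x, Ndufa2 and Atp5e in KO MII rest on 4 to 32 reads a library.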

Other observations

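Outside protein-coding genes the share that fell in KO varied with the gene type. Of 347 lincRNA genes tested, 74 fell and 16 rose from MI to the MII time in KO (21.3% lower, median log2 change -0.27). Of 91 antisense genes 21 fell and 0 rose, with a median of -0.44; since strand was not stated, their reads and those of the gene they overlap cannot be told apart. Of 443 processed pseudogenes 117 fell and 24 rose, with a median of -0.24, and their reads may be shared with parent genes. Of 52 unprocessed pseudogenes 4 fell and 6 rose (7.69% lower), with a median of 0.06. Of 7277 protein-coding genes 1031 fell and 342 rose (14.2% lower), with a median of -0.02. No test of these shares was made.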
